A study of Homo sapiens with 12 samples.

Results

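The genes described here encode the mitochondrial respiratory chain and ATP synthase. They were taken by symbol: protein-coding genes of the NDUFA, NDUFB, NDUFC, NDUFS and NDUFV series, SDHA to SDHD, the UQCR series, COX4 to COX8, ATP5F1, ATP5M and ATP5P, the MT-ND, MT-CO, MT-CYB and MT-ATP genes, and CYC1 and CYCS. Assembly factors, the inhibitor ATP5IF1 and pseudogenes were left out. This gave 97 of the 21207 genes in the table, 84 encoded in the nucleus and 13 in mitochondrial DNA. Of the nuclear genes, 37 belong to complex I, 4 to complex II, 10 to complex III, 13 to complex IV and 19 to complex V, and 1 is cytochrome c. Of the mitochondrial genes, 7 belong to complex I, 1 to complex III, 3 to complex IV and 2 to complex V. NDUFA4 and its paralog NDUFA4L2 were counted in complex IV, where NDUFA4 is known to reside despite its name.

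Complexes I and II pass electrons from NADH and succinate to ubiquinone, complex III passes them on to cytochrome c, and complex IV passes them to oxygen. Complexes I, III and IV pump protons across the inner membrane, and complex V, the ATP synthase, uses that gradient to make ATP. Complexes I, III, IV and V are built from subunits of both genomes, which are transcribed separately, whereas complex II is encoded in the nucleus alone.

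The RNA came from HEYA8, a human line of ovarian cancer. All 4 groups were kept for 48 h, in vehicle (labelled 0 µM) or with 1, 5 or 10 µM of colforsin daropate, and each has 3 libraries. Colforsin daropate is a water-soluble forskolin derivative, and forskolin activates adenylyl cyclase and so raises cyclic AMP. The submitters describe the libraries as biological replicates, all are of 1 line, and the labels do not say how the cultures were separated. Each library also carries a label number, 6, 8 or 11, that recurs in every group, and values below are listed in that order.

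Depth, recovered from the deposited values, was 24.0 to 48.6 megareads on genes per library. Of 10 markers of epithelial carcinoma, 5 entered the tests, and CDH1, MUC1 and MUC16 are not analysed here. KRT8 and KRT18 were at mean values of 14.13 and 14.33 in vehicle, whereas EPCAM stayed between 5.45 and 5.72, near the table's lowest value of 4.86. The epithelial markers summed to 40310 to 68240 recovered counts in the vehicle libraries and 40330 to 42710 at 10 µM. Within the list KRT8 (-0.83) and KRT18 (-0.73) were lower at 10 µM, and KRT7 (1.13) and PAX8 (0.70) were higher. All 4 endothelial markers entered the tests, with sums of 1943 to 8041 in vehicle and 3941 to 4474 at 10 µM, and VWF was lower at 10 µM (-0.84). Of 5 leukocyte markers 0 entered the tests, and the 4 striated muscle markers are not analysed here. The part of these shifts in the results was not tested.

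Promoters of the nuclear genes are shown for members that the results turn on: UQCRH, COX5A and ATP5MC2, which fell most in complexes III, IV and V, CYCS, the cytochrome c gene, and NDUFA12, which was higher at 5 µM. Each line gives the 250 bases before the start that RefSeq gives, 5′ to 3′ (GRCh38.p14). The windows are chr1:46303448-46303697 on the plus strand for UQCRH, and on the minus strand chr15:74938074-74938323 for COX5A, chr12:53676084-53676333 for ATP5MC2, chr7:25125261-25125510 for CYCS and chr12:95003698-95003947 for NDUFA12. Capitals mark matches to motifs named below.
UQCRH: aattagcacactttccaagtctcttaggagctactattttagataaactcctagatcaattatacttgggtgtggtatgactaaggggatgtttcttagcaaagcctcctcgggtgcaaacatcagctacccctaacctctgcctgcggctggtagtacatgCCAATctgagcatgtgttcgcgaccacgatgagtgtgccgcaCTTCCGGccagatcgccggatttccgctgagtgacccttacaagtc
COX5A: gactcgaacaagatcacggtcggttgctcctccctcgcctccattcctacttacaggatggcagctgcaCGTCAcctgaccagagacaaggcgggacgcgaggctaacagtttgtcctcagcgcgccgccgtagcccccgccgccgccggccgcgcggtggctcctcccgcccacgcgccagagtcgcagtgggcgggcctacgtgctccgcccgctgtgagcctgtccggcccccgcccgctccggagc
ATP5MC2: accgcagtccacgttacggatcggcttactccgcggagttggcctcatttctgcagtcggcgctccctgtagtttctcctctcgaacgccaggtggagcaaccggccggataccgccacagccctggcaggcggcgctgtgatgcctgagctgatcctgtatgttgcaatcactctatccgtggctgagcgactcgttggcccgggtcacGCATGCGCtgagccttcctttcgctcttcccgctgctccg
CYCS: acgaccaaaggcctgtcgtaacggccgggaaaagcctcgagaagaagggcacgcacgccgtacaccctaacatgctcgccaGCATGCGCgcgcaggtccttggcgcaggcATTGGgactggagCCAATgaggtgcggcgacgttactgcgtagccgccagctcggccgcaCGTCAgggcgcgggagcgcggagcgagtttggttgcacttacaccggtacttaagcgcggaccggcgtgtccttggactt
NDUFA12: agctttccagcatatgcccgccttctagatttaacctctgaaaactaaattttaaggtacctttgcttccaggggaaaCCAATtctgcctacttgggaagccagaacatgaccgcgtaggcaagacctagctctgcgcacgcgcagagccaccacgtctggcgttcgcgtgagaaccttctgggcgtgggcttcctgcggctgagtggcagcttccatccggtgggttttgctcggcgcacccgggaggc

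Motifs were searched on both strands in the 300 bases from 250 before to 50 after the start. RefSeq windows were matched for 66 of the 84 nuclear members and for 27305 genes in all. The NRF1 motif GCGCATGC, the site of nuclear respiratory factor 1, was in 21.2% of the member promoters and in 3.27% of all promoters. The ETS motif CCGGAAG, bound by the factor GABPA among others, was in 30.3% against 10.7%, and the YY1 motif AAGATGGC in 16.7% against 3.03%. The full cyclic AMP response element TGACGTCA was in 5 of 66 member promoters (7.58%, against 1.98% of all), namely those of NDUFA10, NDUFB2, SDHB, ATP5MC1 and ATP5ME. Its shorter core TGACG, which the full element contains, was in 37.9% against 25%. The E-box CACGTG was in 10.6% against 7.43%, and the CCAAT box (CCAAT) in 33.3% against 35.7%.

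Among the 15 genes that fell at 10 µM, 11 had a matched promoter. Of these, 2 held the NRF1 motif (NDUFA8 and ATP5MC2, 18.2%) and 3 the ETS motif (UQCRH, COX6B1 and ATP5MK, 27.3%). The YY1 motif was in 2 (ATP5PB and ATP5PO, 18.2%), the core TGACG in 3 (NDUFB8, COX5A and ATP5PO, 27.3%) and the full response element in 0. The E-box was in 1 (ATP5PB, 9.09%) and the CCAAT box in 3 (UQCRH, COX6B1 and ATP5MK, 27.3%). Shares of member promoters and of all promoters are those given above. In the printed sequences UQCRH carries an ETS match 46 bases before the start and a CCAAT box 88 bases before it. ATP5MC2 carries an NRF1 match at 40 bases and COX5A the core at 181 bases. CYCS carries an NRF1 match at 169 bases, CCAAT boxes at 140 and 127 bases and the core at 80 bases, and NDUFA12 a CCAAT box at 172 bases. These positions count from the first printed letter of a match to the RefSeq start. A match of letters shows no binding, and no match says only that these letters are not in the window.

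Of the 82 nuclear-encoded subunits tested 7 fell at 5 µM (8.54%, beside 7.44% of all genes) and 15 at 10 µM (18.3%, beside 11.4%). UQCRH and its copy UQCRHL, which may share reads, are in both counts. None of the 13 mitochondrially encoded subunits passed the test at any dose. The difference between the genomes was not itself tested. Levels are the deposited variance-stabilised values, whose units are log2-like for abundant genes, and a difference is a dose mean minus the vehicle mean. A gene is said to have fallen or risen where limma, fitted on all genes, gave an adjusted p under 0.05. After a filter on low values 95 of the 97 genes were tested, and NDUFA7 (5.20 to 6) and ATP5MGL (5.13 to 5.69) were not. In bulk RNA, fewer cells with a transcript and less of it per cell cannot be told apart. The authors scaled the libraries to each other, so every difference is relative to the other genes.

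At 1 µM limma called 0 members lower and 0 higher, where 0.613% of the 17767 genes tested were lower and 1.18% higher. At an unadjusted p under 0.05 there were 9 lower and 6 higher members, against 7.34% and 8.13% of all genes, and voom, limma's method for counts, called 0 each way on recovered counts. At 5 µM 7 members fell and 1 rose, against 7.44% and 7.67% of all genes. The unadjusted counts there were 12 and 4, against 14.3% and 14.6%. At 10 µM 15 members fell and 0 rose, against 11.4% and 11.2% of all genes. At 10 µM voom also gave 15 and 0, and the unadjusted counts were 28 and 1, against 17.5% and 17.3% of all genes.

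All 15 genes that fell at 10 µM were nuclear, and each was lower than vehicle in all 3 label numbers. The 82 nuclear members tested thus had 18.3% called lower. Their median differences at 1, 5 and 10 µM were 0.03, -0.04 and -0.13, where the median of all genes was 0.00 at 1 and 10 µM and -0.003 at 5 µM. By label number the nuclear median at 10 µM was -0.20, -0.10 and -0.10. The falls were small: 4 of the 15 were larger than 0.5 and 0 were larger than 1.

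The label numbers were treated as pairing the libraries, and a model with the number as a replicate block called more genes. With the block 1 member was lower and 1 higher at 1 µM (5.26% and 6.76% of all genes), and 14 lower and 3 higher at 5 µM (15.3% of all genes each way). At 10 µM 28 were lower and 0 higher, against 19.7% and 18.7% of all genes. The 15 genes and the 7 at 5 µM were all called with the block too. The 2 members called at 1 µM were UQCRB, at -0.23 (block adjusted p = 0.0231), and NDUFA12, at 0.30 (0.0102).

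At 5 µM the members lower with the block alone were NDUFB9 (block adjusted p = 0.00437), NDUFS4 (0.0185), NDUFV2 (0.0392), UQCRC2 (0.0181), COX6B1 (0.0175), ATP5MJ (0.0432) and ATP5PB (0.0464). UQCR11, a small subunit of complex III, and MT-CO1 were higher with the block alone (0.0498 and 0.0475). At 10 µM the 13 members lower with the block alone included NDUFB3 (0.022), NDUFB6 (0.0285) and NDUFS4 (0.0062) of complex I and ATP5F1A (0.0149) and ATP5MG (0.0361) of complex V. The other 8 are given with their complexes below.

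**Figure D1:**
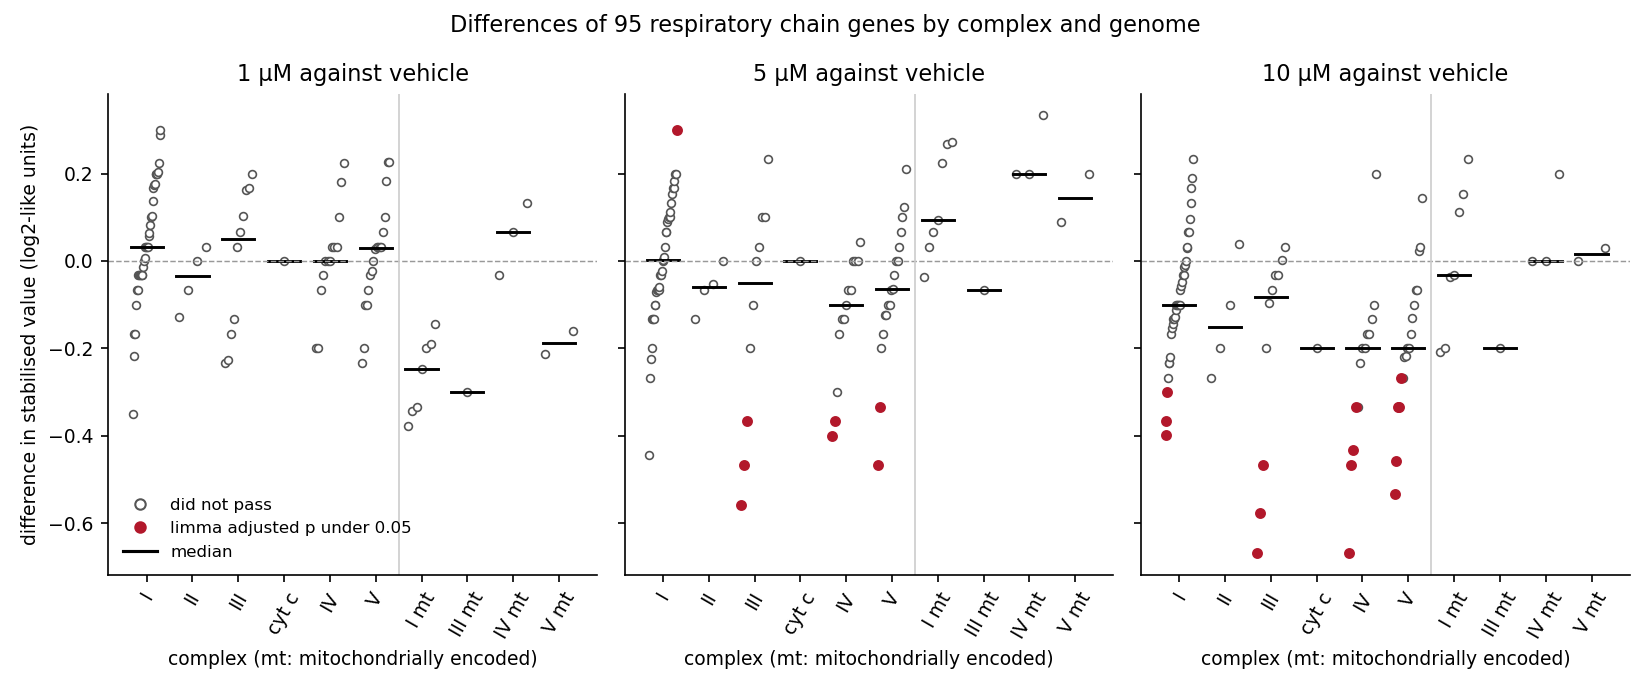
Difference from vehicle (vertical axis, stabilised units) of each tested member at 1, 5 and 10 µM, by complex and genome; filled points passed limma, open points did not, and bars are medians. At 10 µM the filled points are 3 genes of complex I, 3 of III, 4 of IV and 5 of V, all nuclear and all below 0.

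Without regard to a test, the 10 µM libraries all lay below the vehicle libraries for 23 of the 82 nuclear members and all above for 1, NDUFV3, a complex I accessory subunit. Of all genes tested, 16.8% lay wholly below and 17% wholly above. None of the 13 mitochondrially encoded members was separated in this way. In all 3 label numbers, 36 nuclear members were lower at 10 µM than in vehicle and 4 were higher (NDUFA12, NDUFB1, NDUFS8 and NDUFV3, all of complex I). The share of all genes that moved so in every label number was not computed, so these counts have no background beside them.

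Complex III fell in 3 of its 10 nuclear genes, UQCRH, UQCRB and UQCRHL. UQCRH encodes the hinge protein, which bridges cytochrome c1 and cytochrome c (chromosome 1, 46303631 to 46316776, plus strand, GRCh38). It was at 12.3, 12.4 and 12.4 in vehicle, 12.2 in each 1 µM library, 11.8, 11.9 and 12 at 5 µM, and 11.6, 11.7 and 11.8 at 10 µM. Each group mean lay below the one before. The vehicle, 1 µM and 5 µM libraries did not overlap, and the 5 and 10 µM groups met at 11.8. At 1 µM the difference was -0.17 ± 0.07 (SE). It reached -0.47 ± 0.07 with 5 µM (limma adjusted p = 0.00192) and -0.67 ± 0.07 with 10 µM (1.33e-04). Recovered normalised counts were 5226 in vehicle and 3274 at 10 µM, or 62.6% of vehicle.

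UQCRB, the ubiquinone-binding subunit (chromosome 8, 96225920 to 96235634, minus strand), was at 13.9, 13.7 and 13.7 in vehicle and 13.4, 13.2 and 13.3 at 10 µM. The 10 µM libraries lay below all 3 vehicle libraries, and the 1 µM and 5 µM libraries lay between 13.4 and 13.6. It fell by 0.37 with 5 µM (limma adjusted p = 0.00967) and by 0.47 with 10 µM (0.0017). UQCRHL, an intronless copy of UQCRH on the same chromosome, was at 8.22, 8.59 and 8.41 in vehicle and at 7.94, 7.73 and 7.82 at 10 µM. It fell by 0.56 with 5 µM (limma adjusted p = 0.00617) and by 0.58 with 10 µM (0.00336). Its value is uncertain, because reads could be shared with UQCRH, which in vehicle had 3712 recovered counts per kilobase of exon against 131.0 for UQCRHL. UQCRB has an annotated antisense gene, UQCRB-AS1, whose reads cannot be told apart from it where the strand setting is not given.

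The other 7 nuclear genes of complex III had differences of -0.20 to 0.03 at 10 µM. UQCRC2, a core protein, was at -0.20 with limma adjusted p = 0.05003, just above the threshold, and 0.0143 with the block. CYC1, cytochrome c1, the electron-carrying subunit next to the hinge protein, was at 12.5, 12.6 and 12.7 in vehicle and at 12.3, 12.7 and 12.7 at 10 µM. Its groups overlapped and its difference was -0.03 ± 0.11 (limma adjusted p = 0.864). Complex III thus held UQCRH, tied with COX5A for the lowest difference of all members, beside genes near 0.

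Complex IV, cytochrome c oxidase, fell at 10 µM in 4 of 13 nuclear genes, COX5A, COX7C, COX6B1 and COX6C (30.8%, beside 11.4% of all genes). The median over the 13 was -0.20, beside 0.00 over all genes. COX5A, a subunit on the matrix side (chromosome 15, 74919791 to 74938168, minus strand), was at 11, 10.9 and 11.1 in vehicle and 10.8 in each 1 µM library. It was at 10.6 in each 5 µM library and at 10.3, 10.3 and 10.4 at 10 µM. No 2 groups of COX5A overlapped, and each dose lay below the one before. At 1 µM the difference was -0.20 ± 0.07. It reached -0.40 ± 0.07 with 5 µM (limma adjusted p = 0.00271) and -0.67 ± 0.07 with 10 µM (7.26e-05), with recovered counts at 61.9% of vehicle.

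COX7C, a small membrane subunit, was at 13.1, 13.4 and 13.4 in vehicle and 12.9, 12.7 and 12.9 at 10 µM. It fell by 0.37 with 5 µM (limma adjusted p = 0.0197) and by 0.47 with 10 µM (0.00382). The call of COX7C at 5 µM was lost without 5 µM library 6 or 8 or vehicle library 8 or 11. COX6B1, which faces the intermembrane space, was at 11.5, 11.7 and 11.6 in vehicle, 11.7, 11.5 and 11.5 at 1 µM, and 11.3, 11 and 11.2 at 10 µM. Its fall of 0.43 at 10 µM (limma adjusted p = 0.00783) thus came with no separation at 1 µM. COX6C, another membrane subunit, was at 12.9, 12.5 and 12.5 in vehicle and 12.3 in each 10 µM library (-0.33, limma adjusted p = 0.0449). The call of COX6C held in 11 of 25 alternative fits, and it was lost without any 1 of the 10 µM libraries, library 8 or 11 of 1 or 5 µM, or vehicle library 6. With the block COX4I1 (0.0155), COX7A2 (0.0361) and COX8A (0.00904) were also lower at 10 µM.

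Complex V, the ATP synthase, fell at 10 µM in 5 of the 18 nuclear genes tested (27.8%, beside 11.4% of all genes). ATP5MC2, 1 of 3 genes for subunit c of the rotating ring, was at 12.7, 12.8 and 12.8 in vehicle, 12.7, 12.5 and 12.5 at 1 µM, 12.3, 12.2 and 12.4 at 5 µM and 12.3, 12.1 and 12.3 at 10 µM. The 5 and 10 µM libraries overlapped each other and lay below all vehicle libraries. It fell by 0.47 with 5 µM (limma adjusted p = 0.00428) and by 0.53 with 10 µM (0.00128, counts at 69.0% of vehicle). The other subunit c genes, ATP5MC1 and ATP5MC3, had differences of -0.27 and -0.20 that did not pass, and ATP5MC3 passed with the block (0.0231).

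Of the peripheral stalk, which holds the catalytic head still, ATP5PO (the OSCP subunit) and ATP5PB (subunit b) fell. ATP5PO was at 10.4, 10.2 and 10.3 in vehicle and at 9.76, 9.82 and 9.95 at 10 µM, a difference of -0.46 (limma adjusted p = 0.00183). It had already fallen by 0.33 with 5 µM (limma adjusted p = 0.0148), a call lost without 5 µM library 6. ATP5PB was at 12.5, 12.6 and 12.7 in vehicle and 12.2, 12.2 and 12.4 at 10 µM (-0.33, limma adjusted p = 0.00927). Other stalk subunits, ATP5PD and ATP5PF, were at -0.07 each. The small membrane subunits ATP5MJ (-0.33, limma adjusted p = 0.0266) and ATP5MK (-0.27, adjusted p = 0.0284) fell to 10.6 to 10.7 and 10.7 to 10.8, from 10.9 to 11.2 and 10.9 to 11.1 in vehicle. The calls of ATP5MJ and ATP5MK each held in 18 of 25 alternative fits. That of ATP5MJ was lost without any 1 of the 10 µM libraries or vehicle library 6, and that of ATP5MK without 10 µM library 6 or 8 or vehicle library 8 or 11. ATP5F1B, the catalytic beta subunit, which had the highest recovered count per kilobase of the nuclear members, was at 0.03.

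Complex I, NADH dehydrogenase, had 3 of 36 nuclear genes lower, or 8.33%, beside 11.4% of all genes. NDUFB8, an accessory subunit of the membrane arm, was at 8.27, 8.08 and 8.23 in vehicle and at 7.63, 7.92 and 7.84 at 10 µM (-0.40, limma adjusted p = 0.0213). NDUFB9, in the same arm, was at 13.2, 13.4 and 13.4 in vehicle and 12.8, 13 and 13.1 at 10 µM (-0.37, limma adjusted p = 0.0269). NDUFA8, an accessory subunit on the intermembrane side, was at 10.4 in each vehicle library and 10.1, 10.0 and 10.2 at 10 µM (-0.30, limma adjusted p = 0.0111). Vehicle and 10 µM libraries did not overlap for any of these. The calls of NDUFB8 and NDUFB9 each held in 18 of 25 alternative fits and were lost without 10 µM library 6 or vehicle library 11. NDUFB8 was also lost without vehicle library 6, and NDUFB9 without 10 µM library 8 or vehicle library 8.

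NDUFA12, an accessory subunit of the matrix arm, moved the other way. It was at 10.8, 10.9 and 10.8 in vehicle, 11.1, 11.1 and 11.2 at 1 µM, 11.1, 11.2 and 11.1 at 5 µM, and 10.9, 11 and 11.1 at 10 µM. The 1 and 5 µM libraries lay above all vehicle libraries, and the 10 µM libraries touched them. It rose at 5 µM (0.30, limma adjusted p = 0.0165), whereas 1 µM gave 0.30 with adjusted p = 0.0612 and 10 µM gave 0.17 with 0.123. The call at 5 µM was lost without 5 µM library 8 or without vehicle library 11. The remaining 32 complex I genes that passed at no dose ranged from -0.27 to 0.23 at 10 µM. Core subunits of the electron path ranged from -0.22 in NDUFV2 to 0.23 in NDUFS8, none of them passing at 10 µM.

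Complex II had 0 of 4 genes called at any dose by limma or voom without the block. SDHA, the flavoprotein, differed by 0.04 at 10 µM, SDHB, the iron-sulfur subunit, by -0.10, and the membrane anchors SDHC and SDHD by -0.20 and -0.27. At an unadjusted p under 0.05 there were 0 at 1 and 5 µM and 2 lower at 10 µM, and with the block SDHC (0.0398) and SDHD (0.0147) were lower. CYCS, the mobile carrier between complexes III and IV, was at 12.4, 12.6 and 12.7 in vehicle, 12.4, 12.7 and 12.6 at 1 and at 5 µM, and 12.1, 12.5 and 12.5 at 10 µM. Its groups overlapped, and library 6 was the lowest in each. Within each number it was lower at 10 µM by 0.30, 0.10 and 0.20, and the adjusted p was 0.304 without and 0.0214 with the block.

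**Figure D2:**
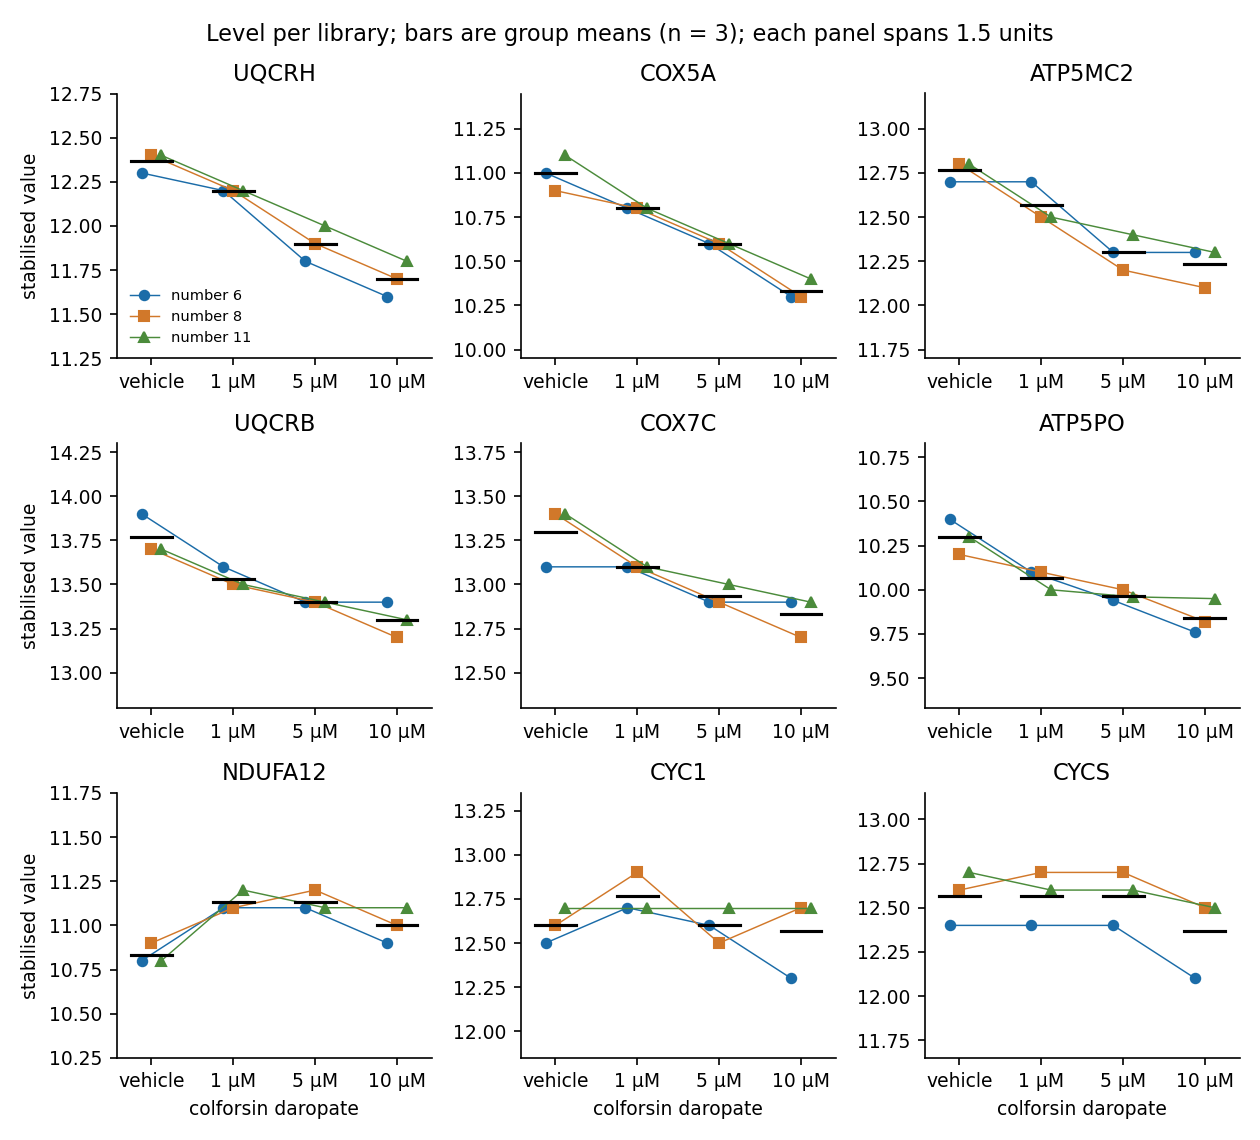
Stabilised value (vertical axis, each panel spanning 1.5 units) of 9 members in every library by dose, with symbols and thin lines for the label numbers and bars for group means. The group means of UQCRH and COX5A step down at each dose, NDUFA12 is above vehicle at 1 and 5 µM, CYC1 overlaps between groups, and CYCS keeps library 6 lowest.

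Summing recovered counts weights the complexes by their most abundant transcripts. The nuclear members summed to 264600, 264700 and 265900 normalised counts in vehicle, 266900, 264100 and 256600 at 1 µM, 245500, 242700 and 258300 at 5 µM, and 225500, 228400 and 246400 at 10 µM. All 6 libraries at 5 and 10 µM stood below the vehicle libraries, and 10 µM reached 88.0% of the vehicle mean. By complex the 10 µM sum was 93.4% of vehicle for complex I, 87.8% for II, 84.7% for III, 82.3% for IV and 89.5% for V. The 10 µM and vehicle libraries overlapped for complex II and did not for I, III, IV and V. Mitochondrially encoded members stood at 102%, 118% and 105% of vehicle at 1, 5 and 10 µM, with libraries from 50190 to 85990 and overlap between all groups.

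**Figure D3:**
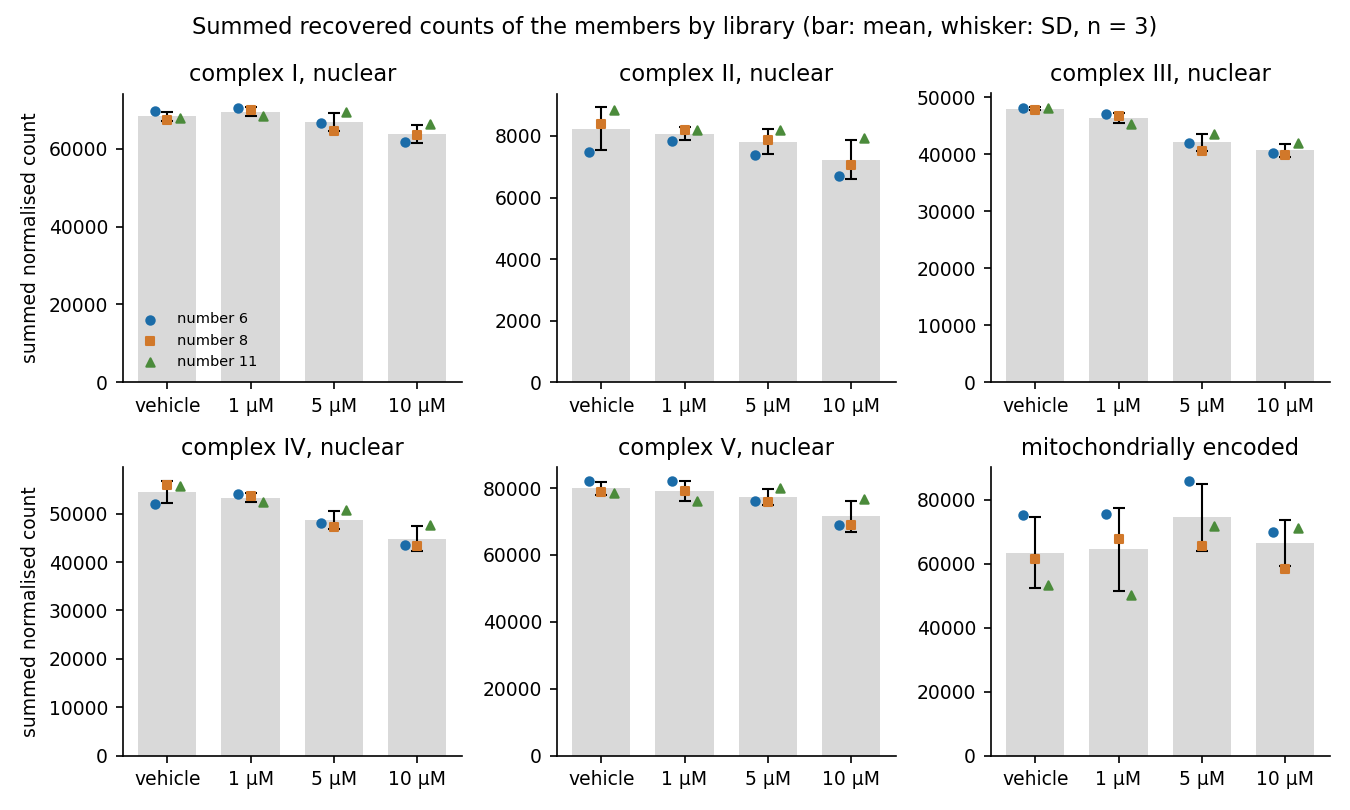
Summed recovered normalised counts (vertical axis) of the nuclear members of each complex and of the mitochondrially encoded members by dose; bars are means, whiskers SD (n = 3) and points libraries. For complexes III and IV the 10 µM bars stand at 84.7% and 82.3% of vehicle, while the mitochondrially encoded sum varies most between libraries of 1 group.

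Of 10 tissue-restricted isoforms looked for, 3 were in the table, and the others are not analysed here. NDUFA4L2, a hypoxia-inducible paralog of NDUFA4, ranged from 6.59 to 7.50 over the 12 libraries and differed by 0.20 ± 0.24 at 10 µM (limma adjusted p = 0.603). Its lowest libraries were those numbered 6 in vehicle, 1 µM, 5 µM and 10 µM alike. UQCRHL is described above, and ATP5MGL was near the lowest value of the table. Their ubiquitous partners all had differences below 0 at 10 µM (10 of 10, -0.67 to -0.13), beside 8794 of the 17767 genes tested. Of the partners 2 passed, UQCRH and COX6B1, beside 11.4% of all genes lower. With the block 7 of the 10 were lower, beside 19.7% of all genes.

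No mitochondrially encoded mRNA was called lower or higher at any dose, beside 11.4% of all genes lower and 11.2% higher at 10 µM. The SE of their 10 µM differences ran from 0.14 in MT-ND3 to 0.35 in MT-CYB, against 0.07 in UQCRH and COX5A. Falls of the size called in nuclear members could thus go uncalled here, and the absence of calls does not show unchanged levels. Limma and voom each called 0 of 13 at 1, 5 and 10 µM, and at an unadjusted p under 0.05 there was 1 lower at 1 µM, 1 higher at 5 µM and 0 at 10 µM. The medians of their differences at 1, 5 and 10 µM were -0.20, 0.20 and 0.00. They moved with single libraries. At 1 µM the median was -0.02 without 1 µM library 11 and -0.37 without 1 µM library 6. At 5 µM it was 0.03 without 5 µM library 6, 0.05 without vehicle library 11 and 0.33 without vehicle library 6. With the block MT-CO1 was higher at 5 µM (0.33, block adjusted p = 0.0475), and no other member passed against vehicle.

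These transcripts come from long polycistronic precursors that are cut at the tRNAs between them, so neighbouring genes share their synthesis. MT-CO1, the catalytic subunit of complex IV, was at 14.4, 14.2 and 14 in vehicle, 14.4, 14.4 and 14 at 1 µM, 14.7, 14.3 and 14.6 at 5 µM and 14.5, 14.2 and 14.5 at 10 µM. MT-CO2 was at 13.4, 13.1 and 12.8 in vehicle and 13.1, 12.9 and 13.3 at 10 µM, and MT-CO3 at 14.7, 14.4 and 14.2 and at 14.5, 14.3 and 14.5. In all 3 genes the vehicle and 10 µM libraries overlapped.

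Among the complex I genes, all membrane-arm subunits, MT-ND1 was at 10.0, 9.65 and 9.66 in vehicle and 10.0, 9.77 and 10.0 at 10 µM. MT-ND2 was at 9.10, 9.13 and 9.02 in vehicle and, at 1 µM, at 8.88, 8.98 and 8.26, the last being its lowest library. MT-ND3 was at 12.7, 12.5 and 12.3 in vehicle and 12.6, 12.6 and 13 at 10 µM (0.23, limma adjusted p = 0.278). MT-ND3 and MT-ND1 had the highest 10 µM differences of the 7 complex I genes. MT-ND4 was at 10.9, 10.4 and 10.3 in vehicle and 10.8, 10.2 and 10.5 at 10 µM, and the overlapping MT-ND4L at 9.16, 8.72 and 8.50 and at 9.24, 8.70 and 8.78. MT-ND5 was at 10.8, 10.4 and 10.3 in vehicle and 10.7, 10.0 and 10.2 at 10 µM. MT-ND6, the only 1 of the 13 on the other strand, was at 8.92, 8.36 and 8.43 in vehicle and 8.72, 8.04 and 8.33 at 10 µM. MT-ND5 and MT-ND6 had the lowest 10 µM differences, -0.20 and -0.21, with limma adjusted p of 0.729 and 0.691.

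MT-CYB, the mitochondrial subunit of complex III, was at 11.4, 10.7 and 10.4 in vehicle and 11.1, 10.3 and 10.5 at 10 µM. MT-ATP6, of the proton channel of complex V, was at 10.1, 9.48 and 9.25 and at 9.87, 9.28 and 9.68, and the overlapping MT-ATP8 at 7.78, 7.30 and 7.40 and at 7.72, 7.27 and 7.58. In MT-CYB the spread between label numbers within vehicle, 10.4 to 11.4, exceeded every difference between dose means. The genes varied together by library: 1 µM library 11 was the lowest or tied for lowest in 13 of 13 genes, and 5 µM library 6 the highest or tied in 12 of 13. Reads from MT-ATP8 and MT-ATP6, or MT-ND4L and MT-ND4, cannot be told apart where the genes overlap, and nuclear copies of mitochondrial DNA make all 13 uncertain to some degree.

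**Figure D4:**
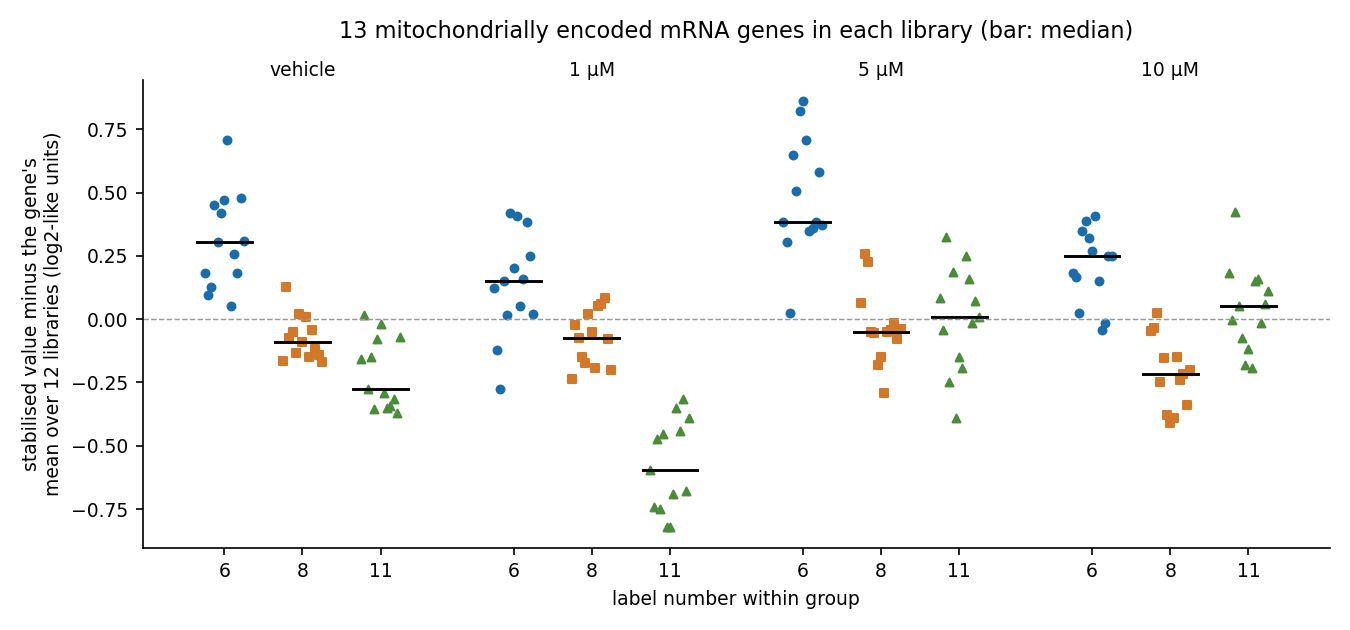
Stabilised value of the 13 mitochondrially encoded mRNA genes minus each gene's mean over the 12 libraries (vertical axis), by dose and label number; bars are medians. Library 11 at 1 µM is the lowest or tied in 13 of 13 genes and library 6 at 5 µM the highest or tied in 12 of 13.

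Levels can be compared between genes only per length. Recovered normalised counts per kilobase of exon in vehicle were highest for MT-CO3 (28440), MT-ND3 (16680), MT-CO2 (12940) and MT-CO1 (12250), followed by ATP5F1B (8080). Of the other mitochondrial genes, MT-ND2 was lowest at 466.5. Exon lengths were unions over all annotated transcripts, so genes with long retained-intron transcripts, such as SDHC, are understated. Mitochondrial mRNA took 0.128% to 0.229% of gene reads per library and the nuclear members 0.590% to 0.714%. Reads that were not unique, 19.3% to 25.6% of all reads per library, are not among gene reads. Mitochondrial genes have nuclear copies, and the part of such reads in these levels and shares was not tested.

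Between treated groups, 10 µM against 1 µM, 3 members were lower and 0 higher, beside 2.54% and 2.17% of all genes, and voom gave the same counts. The 3 were UQCRH (-0.50, limma adjusted p = 0.00558), COX5A (-0.47, adjusted p = 0.00489) and COX6B1 (-0.40, adjusted p = 0.0396). The nuclear median was -0.20 and 71 of 82 nuclear members were below 0, beside 8665 of the 17767 genes tested. With the block 22 were lower, all nuclear, and 2 were higher, MT-ND1 (0.34) and MT-ND3 (0.43), against 11.4% and 9.46% of all genes. For both higher genes 1 µM library 11 was the lowest of the 12. At an unadjusted p under 0.05 there were 33 lower and 1 higher, against 11.1% and 10.0% of all genes. The call of COX6B1 was lost without any 1 of the 1 or 10 µM libraries, or without library 8 or 11 of vehicle or 5 µM, and without vehicle library 6 there were 6 lower members in place of 3.

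Members that fell lay on several chromosomes. Chromosome 8 holds 4 of the tested members, UQCRB, NDUFB9, COX6C and CYC1, and the first 3 of these fell at 10 µM, beside 94 of 666 tested genes of that chromosome (14.1%). Chromosome 1 had 3 of 7 members lower (UQCRH, its copy UQCRHL, which may share its reads, and ATP5PB), beside 10.8% of its tested genes. On chromosome 11 it was 0 of 7, beside 10.6%. This grouping was looked at after the values were seen. No test was made of it.

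Other genes of the pathway were read from lists at 10 µM. They are set beside the 11.4% of all genes that were lower and the 11.2% that were higher. Counts with the block in these lists stand beside 19.7% lower and 18.7% higher of all genes, and unadjusted counts beside 17.5% and 17.3%. Of 57 assembly factors tested, 5 fell and 5 rose, with a median of -0.01 (9 and 8 with the block). Among them ECSIT, of complex I assembly, fell by 0.43 (limma adjusted p = 0.0182) and HIGD2A, of complex IV assembly, by 0.42 (adjusted p = 0.0114). CMC1, a chaperone of early complex IV assembly, was at 11.1 to 11.2 in vehicle and rose to 11.7 to 11.9 (0.63, limma adjusted p = 1.84e-04). ATP5IF1, the inhibitor of the ATP synthase, was higher by 0.41 (limma adjusted p = 0.0462), a call held in 11 of 25 alternative fits and lost without any 1 of the 5 or 10 µM libraries, 1 µM library 8, or vehicle library 8 or 11. CMC1 thus moved opposite to the 4 complex IV subunits that fell. The call of ECSIT was lost without 10 µM library 6 or vehicle library 11. Without these libraries 2 and 3 assembly factors were lower in place of 5, and 3 in place of 5 were higher without 10 µM library 8 or 11, 1 µM library 8, 5 µM library 6 or 8, or vehicle library 8 or 11.

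Of 31 genes of mitochondrial DNA expression, 5 fell and 1 rose, with a median of -0.14. TOP1MT, the mitochondrial topoisomerase, was at 10.9, 11.1 and 11.2 in vehicle and 9.87, 10.2 and 10.0 at 10 µM, a fall of 1.04 (limma adjusted p = 1.94e-04), and its call held in 25 of 25 alternative fits. TFB1M, the methyltransferase of the small mitochondrial rRNA, fell by 0.72 (limma adjusted p = 0.00118). FASTK, of a family acting on mitochondrial RNA, rose by 0.53 (limma adjusted p = 0.00633). With the block 10 of the 31 were lower and 2 higher.

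Of 13 nuclear regulators of respiratory genes, 2 fell and 2 rose. PPARGC1B, a coactivator of mitochondrial biogenesis, was at 7.93 to 8.09 in vehicle and fell to 6.98 to 7.29 at 10 µM (-0.88, limma adjusted p = 6.90e-04). HIF1A, the oxygen-regulated subunit of hypoxia-inducible factor, was at 13 to 13.7 in vehicle and rose to 14.4 to 14.7 at 10 µM (1.10 ± 0.21, limma adjusted p = 0.00372). CHCHD2 fell by 0.33 (adjusted p = 0.013) and ESRRG, an orphan nuclear receptor, was higher by 0.44 (0.0367). The call of CHCHD2 was lost without 10 µM library 6, and that of ESRRG without any of 6 single libraries, namely libraries 8 and 11 of vehicle and of 1 µM and libraries 6 and 11 of 10 µM. Without vehicle library 6, 4 regulators were lower, and without 10 µM library 6, 1.

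Fuel-supplying enzymes moved in both directions. Of 14 TCA cycle genes 4 fell and 0 rose at 10 µM (4 and 0 by voom as well, 4 and 0 unadjusted, 5 and 1 with the block). CS, citrate synthase, fell by 0.47 (limma adjusted p = 0.00288) and FH, fumarase, by 0.36 (adjusted p = 0.0469), and the call of FH held in 11 of 25 alternative fits, being lost without any of 8 single libraries (all of vehicle, 8 and 11 of 1 and 10 µM, and 8 of 5 µM). Leaving out 10 µM library 6 or 8, or vehicle library 6, gave 2 lower in place of 4, and without vehicle library 6, 2 were higher. Of 11 genes of pyruvate entry 3 fell and 2 rose (5 and 3 with the block), with PDP1, the phosphatase that activates pyruvate dehydrogenase, at -0.80 and PDK1, a kinase that inhibits it, at -0.77 (limma adjusted p = 0.00119 and 0.00615). PDK2, another such kinase, rose by 0.49 (0.0109) and PDHX, a structural component, by 0.27 (0.0168). The call of PDHX was lost without 10 µM library 11 or vehicle library 8, which left 1 rise.

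Of 16 genes that bring electrons to ubiquinone by other routes or make it, 1 fell and 3 rose (3 and 4 with the block), and the median was 0.10. COQ3, a methyltransferase of ubiquinone synthesis, was at 8.36 to 8.48 in vehicle and fell to 7.37 to 7.77 at 10 µM (-0.83, limma adjusted p = 6.13e-04). COQ6, a hydroxylase of the same route, rose by 0.40 (limma adjusted p = 0.00638). SQOR, which oxidises sulfide, was higher by 0.58 (adjusted p = 0.0249). The call of SQOR was lost without 10 µM library 6 or 11 or vehicle library 8 or 11. With 10 µM library 6 or 11, or vehicle library 11, left out, 1 of these genes was higher in place of 3.

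**Figure D5:**
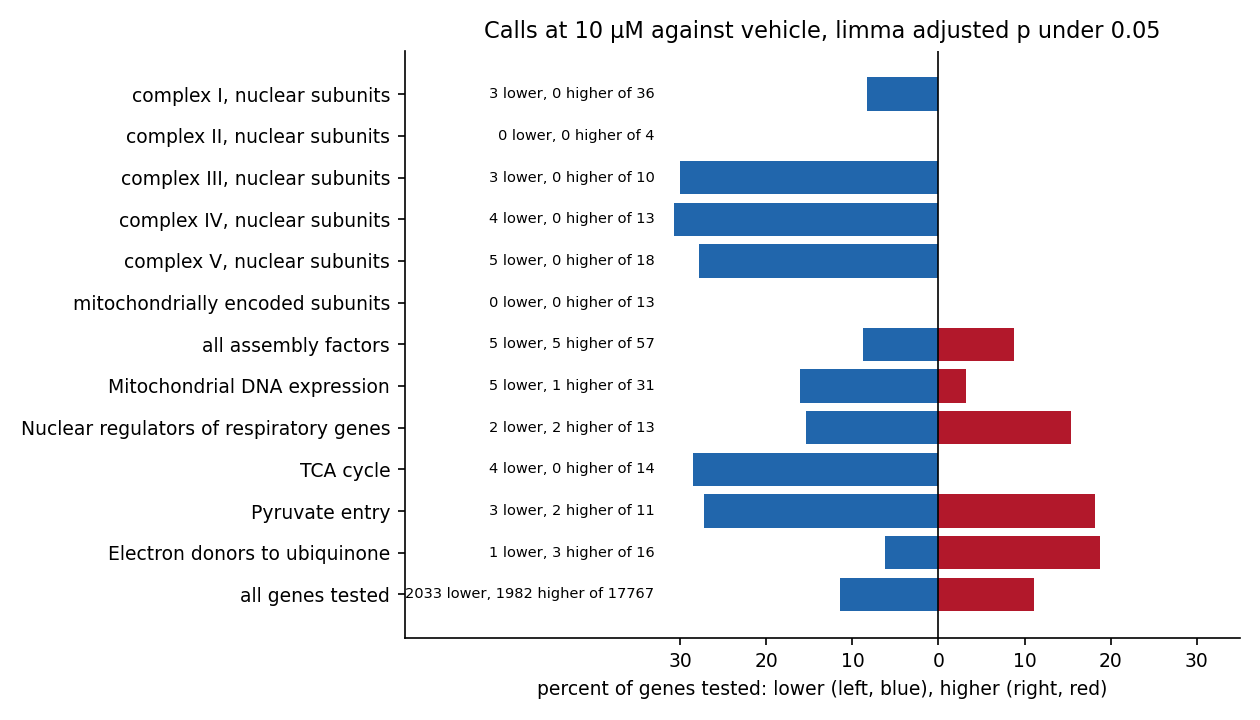
Percent of tested genes lower (left) and higher (right) at 10 µM against vehicle by limma, with the counts printed beside each bar. Complexes I, III, IV and V extend to the left alone, with 3 of 36, 3 of 10, 4 of 13 and 5 of 18 genes lower. So does the TCA cycle list, with 4 of 14. Complex III counts UQCRH and its copy UQCRHL separately. Complex II and the mitochondrially encoded subunits show no call, and all genes tested stand at 11.4% and 11.2%.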

How the data were processed

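Libraries were TruSeq total RNA after removal of rRNA, per the labels' protocols. The authors deposited variance-stabilised expression values on a log2-like scale for 12 libraries. Per the submitters' processing notes the authors used DESeq2 and GRCh38 (hg38). Which aligner, counter, strand setting, annotation release and gene filter they used is not given in the sources used here. Deposited values were rounded to 3 significant digits, so a level from 10 up moves in steps of 0.1, and 67 of the 97 members have mean levels there. The table held 21211 entries, of which 4 named no gene and stayed out. These 4 (no feature, ambiguous, not aligned, not unique) took 63.3% to 66.1% of reads. Symbols were found for 21166 of 21207 genes, and positions come from GENCODE 29.

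Depth and counts were recovered by fitting the stabilising curve (dispersion 0.0376, extra term 3.38) to low values, of which 99.6% of 79211 below 6.5 fell within 0.006 of a whole read, against 34.3% with depths assigned to the wrong libraries. Recovered counts from a level of 10 up are inexact, because of that rounding.

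Tests were limma 3.58.1 in R 4.3.3 on the values of all 12 libraries and 4 groups, with a variance trend, for the 17767 genes more than 1 above the floor of 4.86 in at least 3 libraries. Adjusted p-values are Benjamini-Hochberg over all genes tested, two-sided, with a threshold of 0.05. SE is limma's, and p-values measure the spread between these libraries of 1 cell line. The scripts were tested on simulated data. Alternatives were a replicate block, other filters, scalings and weights, voom on recovered counts, the 2 groups alone, and libraries left out. The members and lists were chosen with earlier results of these data known. Named genes were, by rule, all mitochondrial mRNA genes, the 3 lowest and 2 highest calls per complex at 10 µM, CYC1 and CYCS, the isoforms and partners, members called at 1 µM or against their complex, and the 2 largest rises and falls per list. Other members are named as neighbours in role.

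Same-numbered libraries deviated together: the correlation of their deviations from the group means was 0.316 to 0.777 over 18 pairs, above 0.1 in every pair, against -0.711 to 0.569 over 36 pairs of different numbers. The ranges overlapped. The numbers were treated as pairing the libraries by this check, and not by a stated meaning in the labels.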

Additional observations from a re-analysis of the deposited data

How the results depend on the processing

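Each value was recomputed in 25 alternative fits. Counts of members called at 10 µM were 15 lower and 0 higher, and became 8 lower with only the 2 groups compared, 27 lower and 2 higher with array weights, 28 lower with the replicate block and 28 lower with voom and the block. At 5 µM the 7 lower and 1 higher became 21 and 6 with array weights, 14 and 3 with the block, and 14 and 2 with voom and the block. At 1 µM the 0 and 0 became 10 and 13 with array weights, 1 and 1 with the block, and 2 and 1 with voom and the block. For 10 µM against 1 µM the 3 lower and 0 higher became 13 and 1 with array weights, and 22 and 2 with the block and with voom and the block. With libraries left out, singly or as a whole label number, lower members ranged from 0 to 2 at 1 µM, 0 to 11 at 5 µM, 2 to 20 at 10 µM and 0 to 8 for 10 µM against 1 µM, and higher members from 0 to 1, 0 to 4, 0 to 2 and 0 to 0. Without all libraries numbered 8, 2 were lower at 10 µM, without 11, 4, and without 6, 20. Each of these fits left out as many libraries as the others, and the cause of the differences was not tested. For array weights, the 2 groups alone and libraries left out, the shares of all genes called are not given here. A change in these member counts can therefore not be told apart from a change in the calls of all genes. UQCRH and COX5A were called at 10 µM in 25 of 25 fits. Among the members, the block changed no call against vehicle other than those named above. For 10 µM against 1 µM its changes are given as counts. Of 5892 values of named genes under alternatives, 5369 kept their call or its absence (uncalled values near 0 can change sign and count here), 230 gained a call and 293 lost it, and none reversed. Of 150 medians, 20 moved, 14 of them the nuclear median at 1 µM (-0.001 to 0.05). Scalings shifted the median of all genes by at most 0.048. Rounding in steps of 0.1 limits differences of abundant members.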

Other observations

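The 2 mitochondrial rRNA genes, which are read from the same mitochondrial DNA as the mRNA genes, had lower means after treatment. MT-RNR1 was at 13, 13.5 and 14.2 in vehicle, 12.5, 13 and 12.6 at 1 µM, 13, 13.1 and 12.6 at 5 µM and 12.6, 12.8 and 13.3 at 10 µM. MT-RNR2 was at 16.2, 16.7 and 16.9 in vehicle, 15.7, 16.2 and 15.9 at 1 µM, 16.1, 16.3 and 16.2 at 5 µM and 15.9, 16.1 and 16.5 at 10 µM. In vehicle the label numbers stood in the opposite order to MT-CO1, MT-CO2 and MT-CO3, with library 11 highest. Limma called neither gene at any dose (adjusted p of 0.108 to 0.217). With the replicate block MT-RNR1 was lower at 1 µM (-0.87, adjusted p = 0.0291), 5 µM (-0.67, 0.0442) and 10 µM (-0.67, 0.0367), and MT-RNR2 at 1 µM (-0.67, 0.00529), 5 µM (-0.40, 0.0288) and 10 µM (-0.43, 0.0158). The libraries were depleted of ribosomal RNA, and their share of not unique reads was also highest in vehicle library 11 (25.6%) and 19.3% to 22% in the 9 treated libraries. The part of either in the rRNA values was not tested.

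Of 10 mitochondrial tRNA genes tested, limma called 0 at each dose, with 2 lower at an unadjusted p under 0.05 at 5 and at 10 µM. Voom called 0 as well. In the fit with the block, MT-TI and MT-TQ, which overlap on opposite strands, were lower at 5 µM (-0.60 and -0.65, adjusted p = 0.0138 and 0.00745) and at 10 µM (-0.67 each, adjusted p = 0.0059 and 0.00501), in 3 of 3 numbers each. Of 8 nuclear copies of mitochondrial genes that the table holds, 4 were tested and 0 were called by limma, with or without the block, at 1, 5 or 10 µM against vehicle, and 0 had an unadjusted p under 0.05.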
